A study of Mus musculus with 2 samples.

Results

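The Myc and Max network was read here as 9 genes, taken as the rows Myc, Mycn, Mycl, Max, Mxd1, Mxd4, Mxi1, Mnt and Mlx of the 28000 rows that both deposited single-cell count matrices of mouse prostate tumours share. All 9 rows were present in both libraries. The proteins are basic helix-loop-helix leucine zipper factors that bind DNA in pairs at E-box sequences. Max is the common partner. Myc, Mycn and Mycl pair with Max to activate genes for ribosome synthesis, metabolism and growth, whereas Mxd1, Mxd4, Mxi1 and Mnt pair with Max at the same sites and recruit Sin3 corepressors. Mlx is a Max-like partner that pairs with the glucose-sensing factors Mlxip and Mlxipl and with some of the antagonists. In prostate epithelium, Myc is a well known oncogene, and antagonists of the Mxd family accompany exit from the cell cycle and terminal differentiation.

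One library came from each genotype. The DoubleTg library (hHGFtg:H11hMET/+:PBCre4, labelled prostatic adenocarcinoma) carried human HGF and human MET transgenes, and the TripleTg library (the same with Ctnnb1 L(Ex3)/+, labelled prostatic carcinoma) also carried a conditional beta-catenin allele that loses exon 3 and is then stabilised. Both genotypes thus shared the HGF transgene, the MET transgene (hMETtg) and Cre. Cre was driven by a probasin promoter, which is active in prostate epithelium, so the MET transgene and the beta-catenin allele recombine in epithelial cells that have expressed Cre, while the HGF transgene is not restricted in this way. The study's methods give a mixed C57BL/6 and C3H SCID background, and the labels give no age. Because genotype and library coincide, they cannot be told apart, no test between genotypes was possible, and every interval below is an exact 95% interval that covers counting error only.

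Kept cells had more than 200 and fewer than 7000 detected genes, with mitochondrial genes below 15% of UMIs (unique molecular identifiers, which count captured transcripts). This kept 10598 of 12072 DoubleTg barcodes and all 9492 TripleTg barcodes, whose deposited matrix already met the limits, with medians of 16761 and 20097 UMIs a cell. Cells were clustered in each library and clusters were called luminal-like, basal-like and so on from marker genes. Luminal-like cells numbered 4988 in DoubleTg and 4773 in TripleTg, basal-like cells 1894 and 1277, and seminal vesicle-like cells 126 and 650. The basal keratin Krt5 stood at 1167 and 1051 CPM, that is, per 1000000 UMIs summed over a class, in the basal-like cells of DoubleTg and TripleTg, against 14.6 and 7.53 CPM in the luminal-like cells. Luminal-like cells held 4759 and 5358 CPM of the luminal keratin Krt8. Fibroblast-, smooth muscle-, endothelial-, macrophage- and dendritic-like clusters were found in both libraries, and a T/NK-like cluster in DoubleTg. Clusters left unnamed held 1856 and 1469 cells and enter no class, most because they were shallow and others because markers of different classes were mixed or no class was reached. Among them was a TripleTg cluster of 144 cells with Cd3g, Cd3d and Nkg7 among its leading genes, mixed with epithelial markers, so the lack of a T/NK-like class in TripleTg does not show that such cells were absent. The libraries shared 29 cell barcodes among the kept cells.

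RefSeq promoter windows (GRCm38.p6, the 250 bases before each gene start) were found for 8 of the 9 members, all but Myc, whose promoter was therefore not searched. The E-box CACGTG, a palindrome that reads the same on both strands, was present in the windows of 3 members, namely Mxd4, Mnt and Mlx, and in 6.02% of the 32851 windows of all genes. These sequences are shown because they hold, in the network's own antagonists and in Mlx, the letters that its dimers bind. Capitals mark the E-box, and each run is 5′ to 3′ on the gene's strand.

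Mxd4, chr5:34187711-34187960, minus strand: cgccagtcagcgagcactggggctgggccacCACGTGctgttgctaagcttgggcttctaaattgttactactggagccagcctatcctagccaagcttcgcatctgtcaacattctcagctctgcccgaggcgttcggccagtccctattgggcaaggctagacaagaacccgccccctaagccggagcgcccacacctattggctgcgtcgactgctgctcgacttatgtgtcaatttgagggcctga

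Mnt, chr11:74830674-74830923, plus strand: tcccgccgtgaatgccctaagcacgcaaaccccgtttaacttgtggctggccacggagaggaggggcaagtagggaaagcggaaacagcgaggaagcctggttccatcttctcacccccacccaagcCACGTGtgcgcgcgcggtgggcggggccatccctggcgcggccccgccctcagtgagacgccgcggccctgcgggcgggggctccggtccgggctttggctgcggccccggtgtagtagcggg

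Mlx, chr11:101087040-101087289, plus strand: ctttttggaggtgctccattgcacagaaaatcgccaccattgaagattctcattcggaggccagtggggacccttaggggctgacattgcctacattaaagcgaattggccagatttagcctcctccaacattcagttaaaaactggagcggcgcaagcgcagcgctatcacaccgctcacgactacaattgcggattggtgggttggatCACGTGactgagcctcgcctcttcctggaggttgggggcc

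The first base of the E-box lay 219 bases before the start of Mxd4, 123 before Mnt and 40 before Mlx. Of the members with a window, 1 (Mycn) held the TCF/LEF letters CTTTGA on either strand, against 13.8% of all windows. The matches describe these windows only, and no binding was measured.

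Myc, on chromosome 15 (61985391 to 61990374, plus strand, GRCm38), gave more UMIs than Mycn and Mycl together in every named class of both libraries. In DoubleTg it was highest in basal-like cells at 174 CPM (169 to 179), followed by fibroblast-like cells at 162 CPM and smooth muscle-like cells at 157 CPM, 3 classes whose neighbouring intervals overlapped. Endothelial-like cells at 99.0 CPM and luminal-like cells at 93.2 CPM (91.9 to 94.6) formed a middle pair with overlapping intervals. Seminal vesicle-like cells held 46.5 CPM and T/NK-like cells 42.6 CPM. Macrophage-like cells at 18.3 CPM and dendritic-like cells at 18.2 CPM were lowest, so the classes of DoubleTg spanned 9.57-fold. RNA from outside a cell can add to such values. In DoubleTg hMETtg, which classes outside epithelium should lack, stood at 197 CPM in fibroblast-like, 148 in T/NK-like, 143 in smooth muscle-like, 121 in endothelial-like and 18.9 CPM in macrophage-like cells, against 494 CPM in luminal-like cells. In TripleTg it stood at 17.5 CPM in fibroblast-like, 13.9 in endothelial-like, 9.42 in smooth muscle-like and 3.05 CPM in macrophage-like cells, against 26.4 CPM in luminal-like cells.

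In TripleTg, Myc was highest in fibroblast-like cells at 123 CPM (113 to 134) and smooth muscle-like cells at 81.3 CPM. Luminal-like cells came next at 55.8 CPM (54.6 to 57.0), and basal-like cells, the highest class of DoubleTg, stood below them at 43.5 CPM (41.2 to 45.9). Endothelial-like cells held 42.5 CPM, dendritic-like cells 36.5 CPM and seminal vesicle-like cells 36.0 CPM, and these and the basal-like value overlapped with their neighbours. Macrophage-like cells were again lowest at 12.9 CPM. Myc was thus higher in basal-like than luminal-like cells of DoubleTg and lower in TripleTg.

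**Figure D1:**
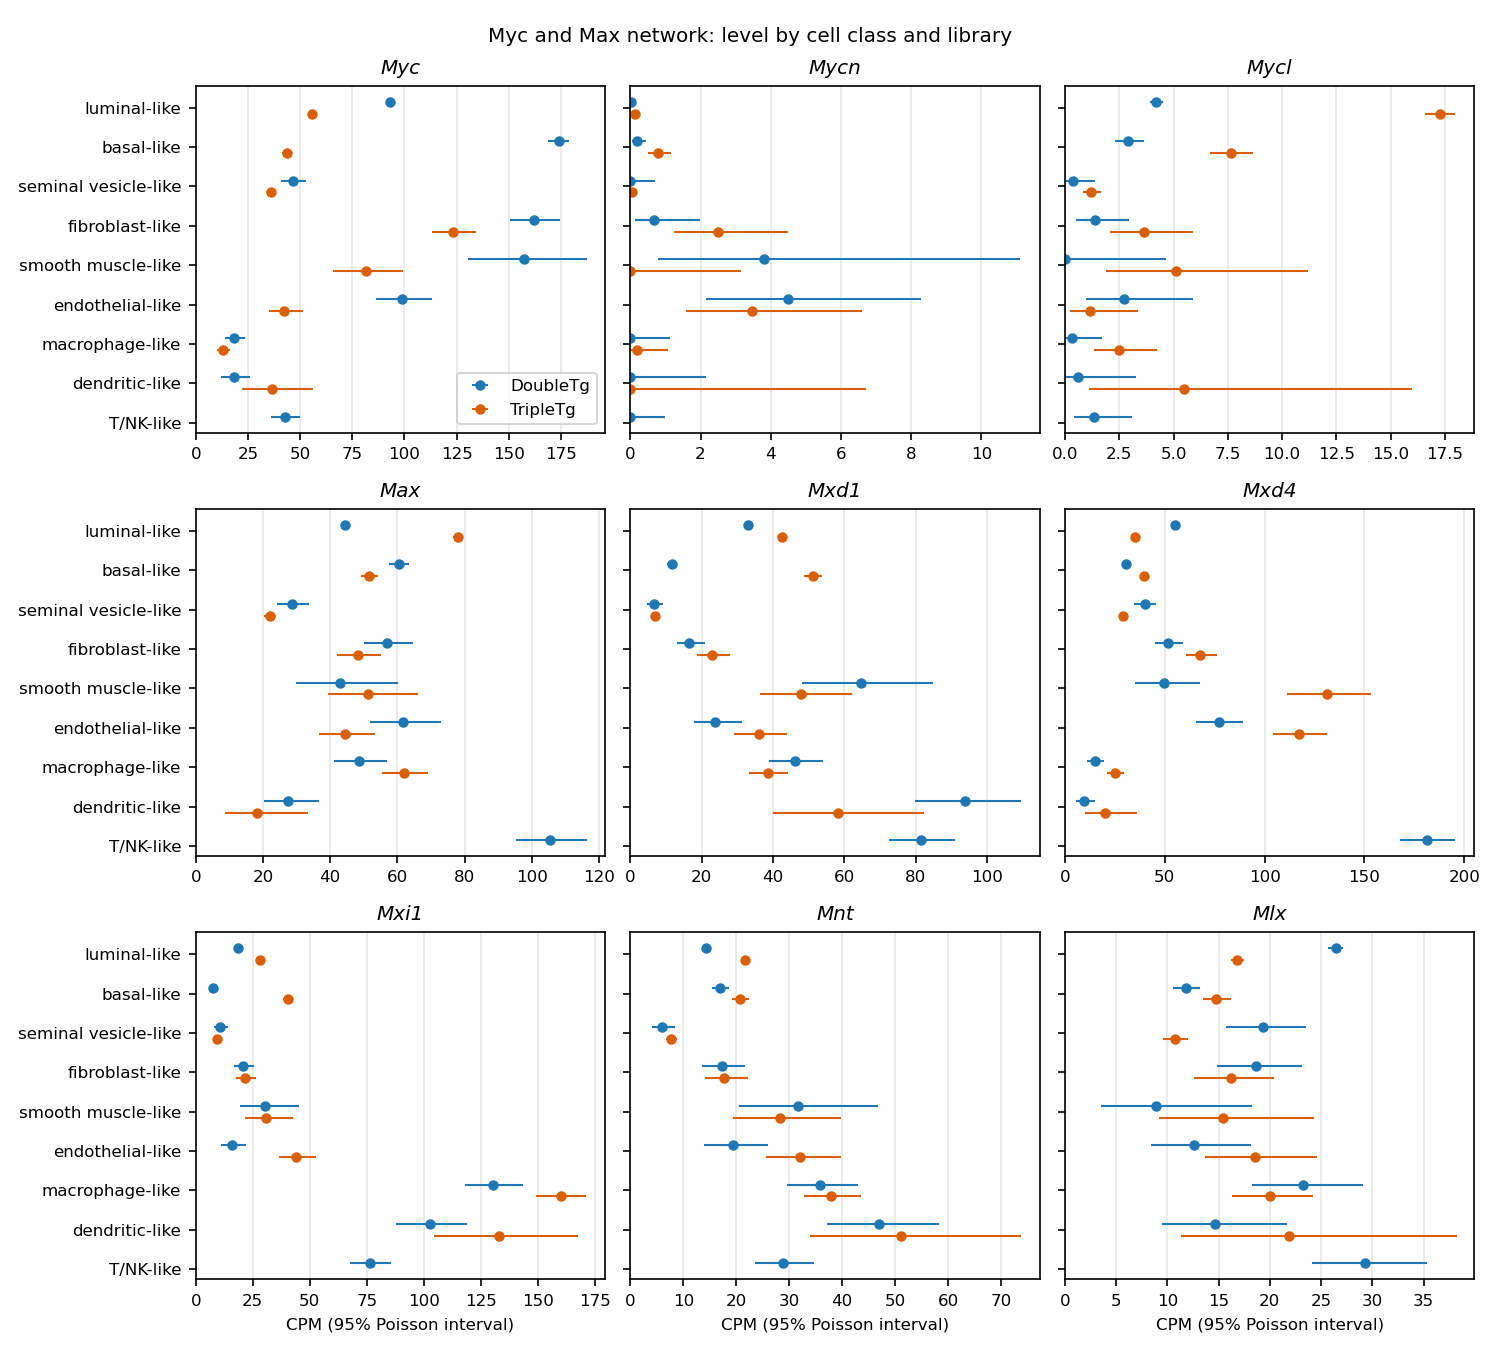
Level of each network member in the named cell classes of the DoubleTg and TripleTg libraries, in CPM on linear axes that differ between genes. Points are class sums and bars exact 95% counting intervals. DoubleTg basal-like cells hold 174 CPM of Myc, 11.6 of Mxd1 and 7.58 of Mxi1, while TripleTg basal-like cells hold 43.5, 51.1 and 40.3 CPM of the same genes.

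Mycl, the family member first known from lung cancer, was a minor activator that was most abundant in luminal-like cells, at 4.2 CPM in DoubleTg and 17.3 CPM in TripleTg. Basal-like cells held 2.91 and 7.63 CPM. Mycn, the member known from neuroblastoma, was near absent: 60 UMIs in all DoubleTg cells and 75 in all TripleTg cells, with its highest values in endothelial-like cells at 4.5 CPM (10 UMIs) and 3.48 CPM (9 UMIs). Myc accordingly made up 95.7% of activator UMIs in DoubleTg luminal-like cells and 98.2% in basal-like cells, against 76.2% and 83.8% in TripleTg.

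Max, the shared partner, spanned 3.83-fold over the classes of DoubleTg and 4.28-fold over those of TripleTg, against 7.81- to 19.3-fold and 6.53- to 16.9-fold for the 4 antagonists. In DoubleTg Max was highest in T/NK-like cells at 105 CPM and stood at 44.3 CPM in luminal-like and 60.4 CPM in basal-like cells. In TripleTg the luminal-like cells were highest at 78.1 CPM (76.7 to 79.5), above basal-like cells at 51.6 CPM. For Max, therefore, basal-like cells were the higher class in DoubleTg and the lower class in TripleTg.

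The antagonists had class patterns of their own. Mxd4 was highest in DoubleTg T/NK-like cells at 181 CPM, in TripleTg smooth muscle-like cells at 131 CPM (111 to 153) and in TripleTg endothelial-like cells at 117 CPM, and lowest in dendritic-like cells of both libraries at 9.38 and 20.1 CPM. Mxi1 was led by macrophage-like cells at 130 and 160 CPM and dendritic-like cells at 103 and 133 CPM in DoubleTg and TripleTg. Mxd1 was highest in dendritic-like cells at 93.8 and 58.3 CPM, and lowest in seminal vesicle-like cells at 6.58 and 6.82 CPM. Mnt, the antagonist that is present in cycling and resting cells alike, ranged from 6.0 CPM in seminal vesicle-like to 46.9 CPM in dendritic-like cells of DoubleTg and from 7.73 to 51.1 CPM in the same classes of TripleTg. Mlx ranged from 8.86 to 29.3 CPM in DoubleTg and from 10.7 to 21.9 CPM in TripleTg, and most neighbouring classes overlapped.

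In epithelium the antagonists differed by subtype. DoubleTg luminal-like cells held 55.3 CPM of Mxd4, 32.9 of Mxd1, 18.7 of Mxi1 and 14.3 of Mnt, and DoubleTg basal-like cells held less of Mxd4 (30.7), Mxd1 (11.6) and Mxi1 (7.58) and slightly more of Mnt (16.9). In TripleTg the basal-like cells held as much or more than the luminal-like cells of each Mxd antagonist: 39.7 against 35.1 CPM for Mxd4, 51.1 against 42.6 for Mxd1 and 40.3 against 28.2 for Mxi1.

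The summed UMIs of the 3 activators, divided by those of the 4 antagonists, give a balance that can be compared between classes, although not read as a ratio of proteins, since 3′ capture differs between genes. In DoubleTg this balance was 2.65 (2.51 to 2.80) in basal-like cells, 1.54 in fibroblast-like cells and 0.80 (0.79 to 0.82) in luminal-like cells. It was lowest in the immune classes, with 0.12 for T/NK-like cells, 0.082 for the macrophage-like cluster and 0.074 for the dendritic-like cluster. In TripleTg the basal-like value was 0.34 (0.32 to 0.36) and the luminal-like value 0.57 (0.56 to 0.59). Fibroblast-like cells were at 0.995, smooth muscle-like cells at 0.36 (0.91 in DoubleTg), endothelial-like cells at 0.21 (0.78 in DoubleTg) and macrophage-like cells at 0.060. The seminal vesicle-like classes had overlapping intervals, at 0.74 (0.62 to 0.88) in DoubleTg and 0.70 (0.65 to 0.76) in TripleTg, and in dendritic-like cells the TripleTg value was the higher one, 0.16 against 0.074, from 23 and 32 activator UMIs.

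**Figure D2:**
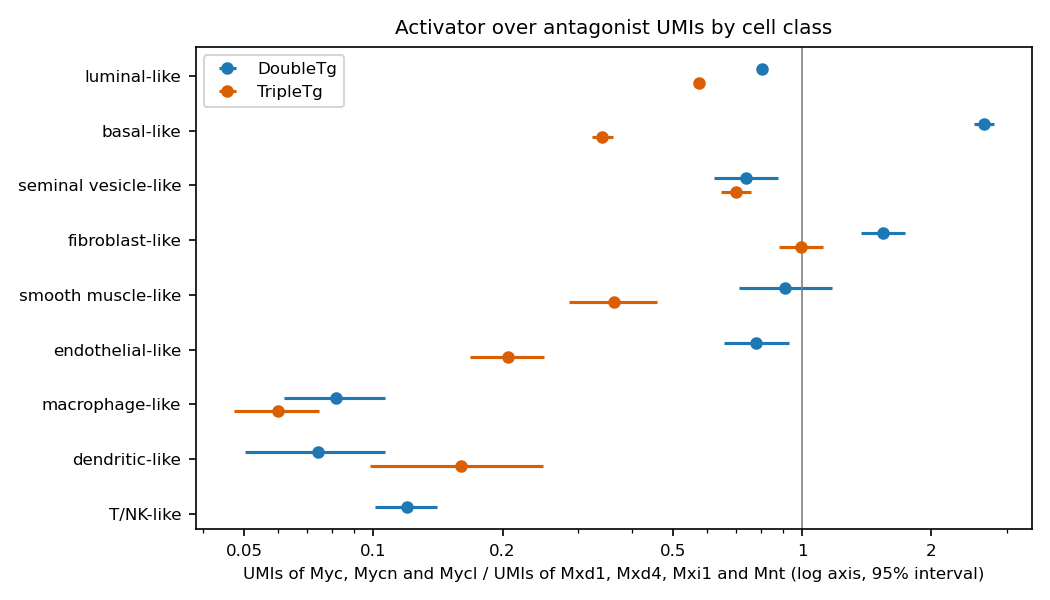
Activator UMIs (Myc, Mycn, Mycl) divided by antagonist UMIs (Mxd1, Mxd4, Mxi1, Mnt) in each named class of both libraries, on a log scale with exact 95% counting intervals. The basal-like classes are farthest apart among the epithelial classes, 2.65 in DoubleTg and 0.34 in TripleTg, while the seminal vesicle-like intervals overlap.

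The study's main single-cell contrast was between epithelial cells that carried hMETtg transcripts in each genotype, and the network was compared there next. Of epithelial-like cells with at least 1 hMETtg UMI, 4522 were from DoubleTg and 2447 from TripleTg, with similar medians of 35832 and 33822 UMIs. Over 9091 genes that reached 5 CPM on one side or the other, 13.2% were at least 2-fold lower and 10.6% at least 2-fold higher in TripleTg, and the median log2 ratio was -0.15. Of the 9 members, 8 met this minimum (all but Mycn), of which 1 was at least 2-fold lower (Myc) and 1 at least 2-fold higher (Mycl), shares close to the background. Myc was at 46.2 CPM in TripleTg and 92.6 CPM in DoubleTg, a log2 ratio of -1.0 (-1.05 to -0.95). Centred on the median of all genes it was -0.86, which is short of 2-fold. Mycl was at 13.3 against 4.10 CPM (1.70, 1.56 to 1.83), and Mycn, with 17 UMIs against 6, was at 2.44 (1.03 to 4.07). Max was higher by 0.57 (0.52 to 0.62), Mxi1 by 0.59, Mnt by 0.41 and Mxd1 by 0.25 on the log2 scale. Mxd4 (-0.64) and Mlx (-0.72) were lower. The members of the activator group and those of the antagonist group thus each held genes on both sides.

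Among genes of the network outside the list, Mga, a large Max partner, was at -0.30 and Mlxip at -0.09. Mxd3 and Mlxipl stayed under 5 CPM, with 23 and 73 UMIs in all DoubleTg cells and 73 and 49 in all TripleTg cells.

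Placed by subtype, the Myc ratio was largest in basal-like cells. In hMETtg-positive basal-like cells Myc was at 38.6 CPM in TripleTg (383 cells) and 178 CPM in DoubleTg (302 cells), a log2 ratio of -2.21 (-2.37 to -2.04). In hMETtg-positive luminal-like cells it was at 49.3 CPM (1653 cells) and 90.3 CPM (4154 cells), a ratio of -0.87 (-0.93 to -0.82). In seminal vesicle-like cells it was at 40.4 CPM (411 cells) and 56.4 CPM (41 cells), a ratio of -0.48 (-0.75 to -0.20). None of the 3 intervals overlapped another. With hMETtg-negative cells included, the ratios were -2.0 (-2.09 to -1.91), -0.74 (-0.78 to -0.70) and -0.37 (-0.57 to -0.16) in the same order.

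The subtypes did not take equal shares in the 2 libraries. Luminal-like cells gave 95% of the UMIs of hMETtg-positive epithelium in DoubleTg and 67.2% in TripleTg, basal-like cells 3.22% and 11.9%, and seminal vesicle-like cells 1.24% and 20.9%. When the DoubleTg subtype levels were weighted with the TripleTg shares, the expected Myc level was 93.6 CPM, against 92.7 CPM with the DoubleTg shares. The pooled log2 ratio of -1.0 over these 3 subtypes therefore divided into 0.01 from subtype shares and -1.02 within subtypes. The small share part joins opposite shifts. More basal-like UMIs (178 CPM of Myc in DoubleTg) raise the expected level. More seminal vesicle-like UMIs (56.4 CPM, from 41 DoubleTg cells) lower it. The part within subtypes still includes differences in cluster shares. For Mxd1 the same division gave -0.32 from shares and 0.57 within subtypes, so its pooled ratio of 0.25 was smaller than the within-subtype part. For Mycl it gave -0.27 and 1.97, and for Mxd4 -0.14 and -0.50.

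Several measures moved with the subtype comparisons. In DoubleTg, hMETtg UMIs were found in 83.3% of luminal-like but only 15.9% of basal-like cells. After each cell was thinned to 5000 UMIs, the basal-like share was 7.62%, against 3.19% (0.66 to 9.04) in dendritic-like, 7.95% in macrophage-like and 20.7% in fibroblast-like cells, classes in which the Cre driver is not expected to act. The share in DoubleTg basal-like cells thus lay within the range of these classes, and the ratio over all basal-like cells is given beside it for that reason. In TripleTg the thinned shares were 10.6% in luminal-like and 10.6% (8.91 to 12.5) in basal-like cells, against 1.21% in macrophage-like and 7.84% (4.86 to 11.9) in fibroblast-like cells, and the fibroblast-like interval overlapped both epithelial ones. The median depth of hMETtg-positive basal-like cells was 14857 UMIs in DoubleTg and 25762 in TripleTg. The basal transcription factor Trp63 was at 16.4 CPM in all DoubleTg and 57.0 CPM in all TripleTg basal-like cells, and Krt14 at 3267 and 1788 CPM. In seminal vesicle-like cells the secretory protein gene Svs2 took 192351 CPM in DoubleTg and 32619 CPM in TripleTg, and the median of all genes was -0.39 in the hMETtg-positive comparison, so the Myc ratio there was only -0.10 when centred on it.

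**Figure D3:**
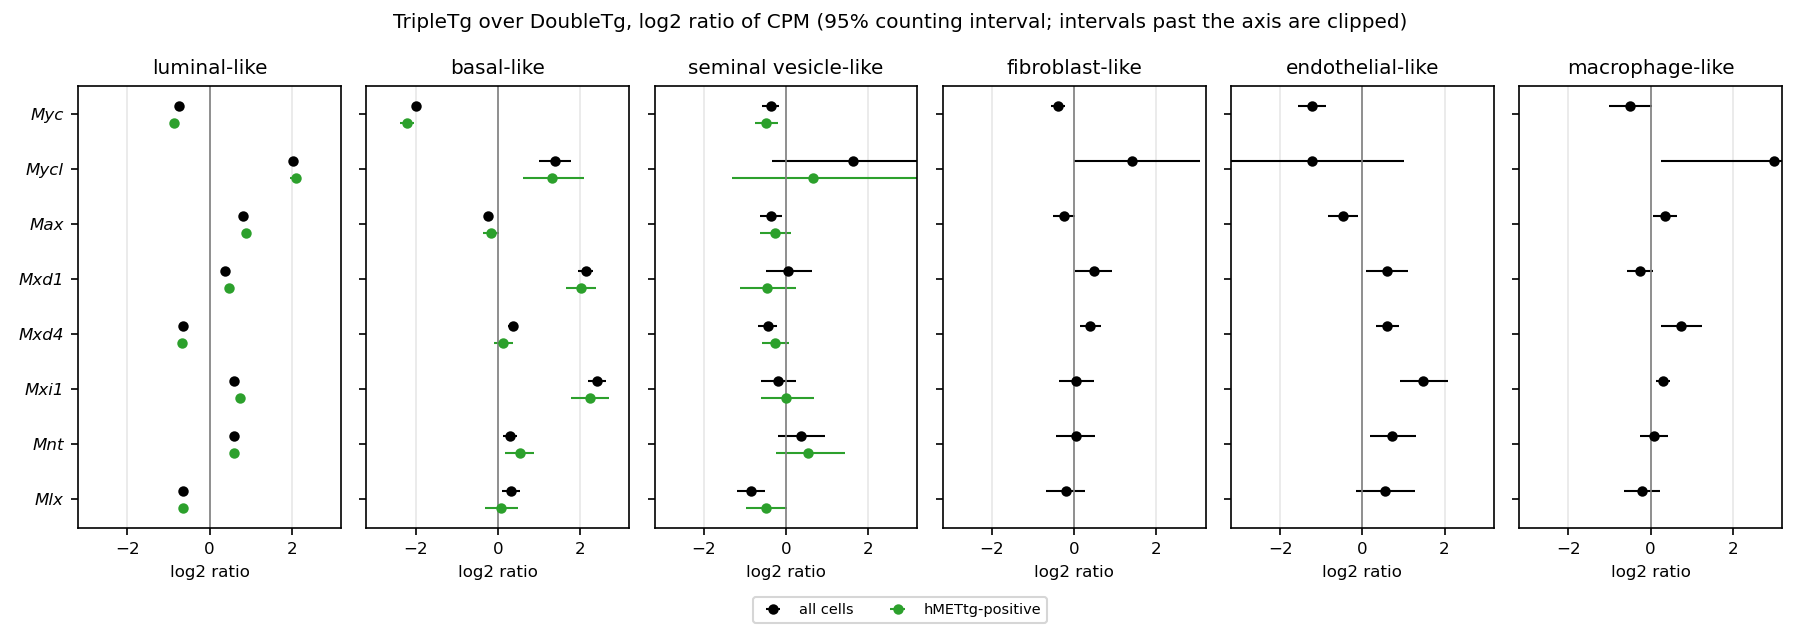
TripleTg over DoubleTg log2 ratio of CPM for 8 members in 6 classes, over all cells (black) and hMETtg-positive cells (green), with exact 95% counting intervals that are clipped at the axis. Among hMETtg-positive cells Myc lies below 0 in all 3 epithelial subtypes and lowest in basal-like cells (-2.21), where Mxd1 and Mxi1 lie highest (2.02 and 2.23).

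The other members did not follow one pattern across subtypes. In luminal-like hMETtg-positive cells, where 13.6% of 9072 genes were at least 2-fold lower and 12% at least 2-fold higher, no member was 2-fold lower and 1 was 2-fold higher, Mycl at 2.09 (1.96 to 2.23). Max was at 0.89, Mxi1 at 0.73, Mnt at 0.59 and Mxd1 at 0.47, and Mxd4 (-0.66) and Mlx (-0.64) were lower. In basal-like hMETtg-positive cells, where 14.5% of 9230 genes were 2-fold lower and 13.8% 2-fold higher, Myc was the only member 2-fold lower, and Mycl (1.33, 0.62 to 2.10), Mxd1 (2.02, 1.67 to 2.38) and Mxi1 (2.23, 1.79 to 2.71) were 2-fold higher. Over all basal-like cells, with background shares of 12.5% and 14.7%, Mxd1 was at 51.1 CPM in TripleTg and 11.6 CPM in DoubleTg (2.14) and Mxi1 at 40.3 and 7.58 CPM (2.41). Max was slightly lower in all basal-like cells (-0.23, -0.33 to -0.13) and Mxd4 and Mlx slightly higher (0.37 and 0.32), signs opposite to those of the luminal-like cells. Among hMETtg-positive cells alone, no member had intervals on opposite sides of 0 in luminal-like and basal-like cells. In seminal vesicle-like hMETtg-positive cells, where 16% of 8110 genes were 2-fold lower and 4.49% 2-fold higher, none of the 7 members with 5 CPM passed 2-fold in either direction.

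The clusters inside each subtype show how uniform these levels were. The 10 luminal-like clusters of DoubleTg ranged from 76.9 CPM of Myc in the cluster led by Aldh1a3 to 119 CPM in the cluster led by Spink5, a spread of 1.54-fold. The 8 luminal-like clusters of TripleTg ranged from 23.8 CPM in the cluster led by Fabp4 to 88.6 CPM in the cluster led by Coch, a spread of 3.72-fold, and 7 of the 8 were below the lowest DoubleTg cluster. The basal-like clusters of DoubleTg were nearly equal at 171 and 175 CPM. The 4 of TripleTg, led by Mt4, Ifi202b, Reg3b and Clca3a2, held 27.4, 37.9, 61.6 and 71.9 CPM, all below both DoubleTg clusters. The Reg3b-led cluster (403 cells) was named from its basal markers, but Krt15 was the one basal keratin among its 10 leading genes. These also held Reg3b, Reg3g, Cxcl5, Psca, Cyp2f2 and Wfdc2, each among the 10 leading genes of a DoubleTg luminal-like cluster. Without the Reg3b-led cluster the basal-like hMETtg-positive Myc ratio was -2.31 (-2.50 to -2.12).

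**Figure D4:**
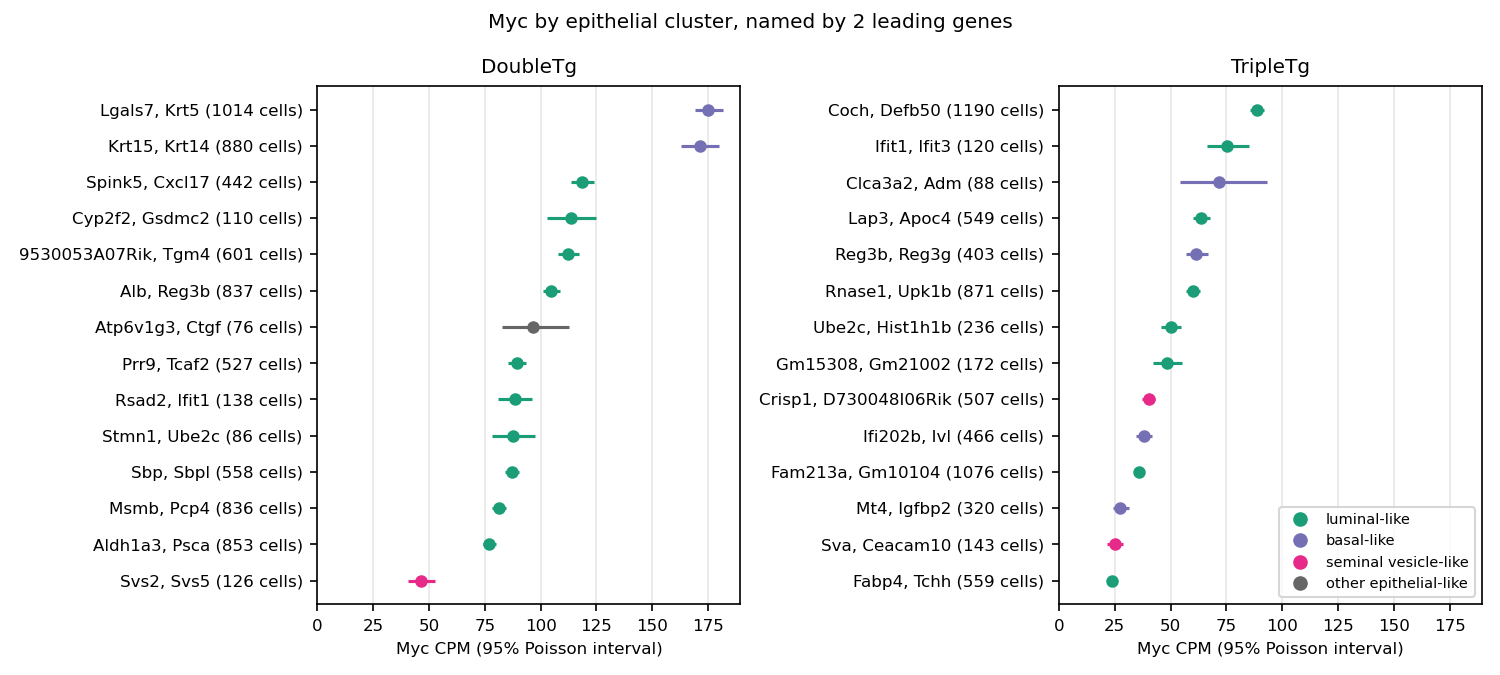
Myc level in each epithelial-like cluster of both libraries, in CPM, ordered by level, with exact 95% counting intervals. Clusters are named by their leading genes and coloured by subtype. All 4 basal-like TripleTg clusters (27.4 to 71.9 CPM) lie below both DoubleTg basal-like clusters (171 and 175 CPM), and the luminal-like TripleTg clusters spread from 23.8 to 88.6 CPM.

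Across the TripleTg luminal-like clusters, those at either end of Myc lay at the opposite end of Mxd1 and Mxi1, but not of Mxd4 and Mnt. Mxd4 was highest in the Gm15308-led cluster (38.2 CPM) and lowest in the Ube2c-led cluster (23.9 CPM), and Mnt was highest in the Ifit1-led cluster (25.9 CPM). The Fabp4-led cluster, lowest in Myc, had the highest Max (113 CPM), Mxd1 (91.1 CPM) and Mxi1 (47.1 CPM) of the 8. It was named from luminal markers, but its leading genes also included Tchh, Cnfn and Rptn, genes of hair and cornified epithelium. Without it the luminal-like hMETtg-positive Myc ratio was -0.72 (-0.78 to -0.67). The Coch-led cluster, highest in Myc, had the lowest Mxd1 (20.7 CPM) and Mxi1 (16.4 CPM). The Fam213a-led cluster lay next to the former with 36.0 CPM of Myc, 54.2 of Mxd1 and 34.6 of Mxi1. The cluster led by the interferon-induced gene Ifit1 broke the pattern with 75.4 CPM of Myc and 77.4 CPM of Mxd1, and in DoubleTg the interferon-gene cluster led by Rsad2 had the highest Mxd1 of any epithelial cluster, 135 CPM, at 88.4 CPM of Myc. The summed immediate early genes, which respond within minutes to stimulation and to tissue dissociation, followed Myc over these 8 clusters with a Spearman rho of 0.88, and rho was -0.64 with Mxd1 and -0.83 with Mxi1. Over the 10 luminal-like clusters of DoubleTg the same coefficients were 0.30 with Myc, 0.36 with Mxd1 and 0.04 with Mxi1. The clusters of a library share dissociation, and the part of immediate early expression in the Myc levels was not tested. In the basal-like clusters of TripleTg, the Mt4-led cluster with the lowest Myc likewise had the highest Mxd1 (66.4 CPM) and Mxi1 (67.0 CPM), and the Clca3a2-led cluster with the highest Myc the lowest (12.8 and 12.8 CPM). The latter held 88 cells and 778799 UMIs, so its values rest on few counts. In hMETtg-negative cells its Myc interval (54.4 to 94.0 CPM) overlapped that of the Reg3b-led cluster (61.6 to 73.8 CPM). Among the leading genes of the Mt4-led cluster were Krt42, Asprv1 and Sprr1b, and of the Ifi202b-led cluster Ivl, genes of keratinising epithelium that were not among the 10 leading genes of either DoubleTg basal-like cluster. Without the Mt4-led cluster the basal-like hMETtg-positive Myc ratio was -2.10 (-2.28 to -1.92), and without the Ifi202b-led cluster -2.21 (-2.42 to -2.0). The part of this difference in the Mxd1 and Mxi1 ratios was not tested.

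**Figure D5:**
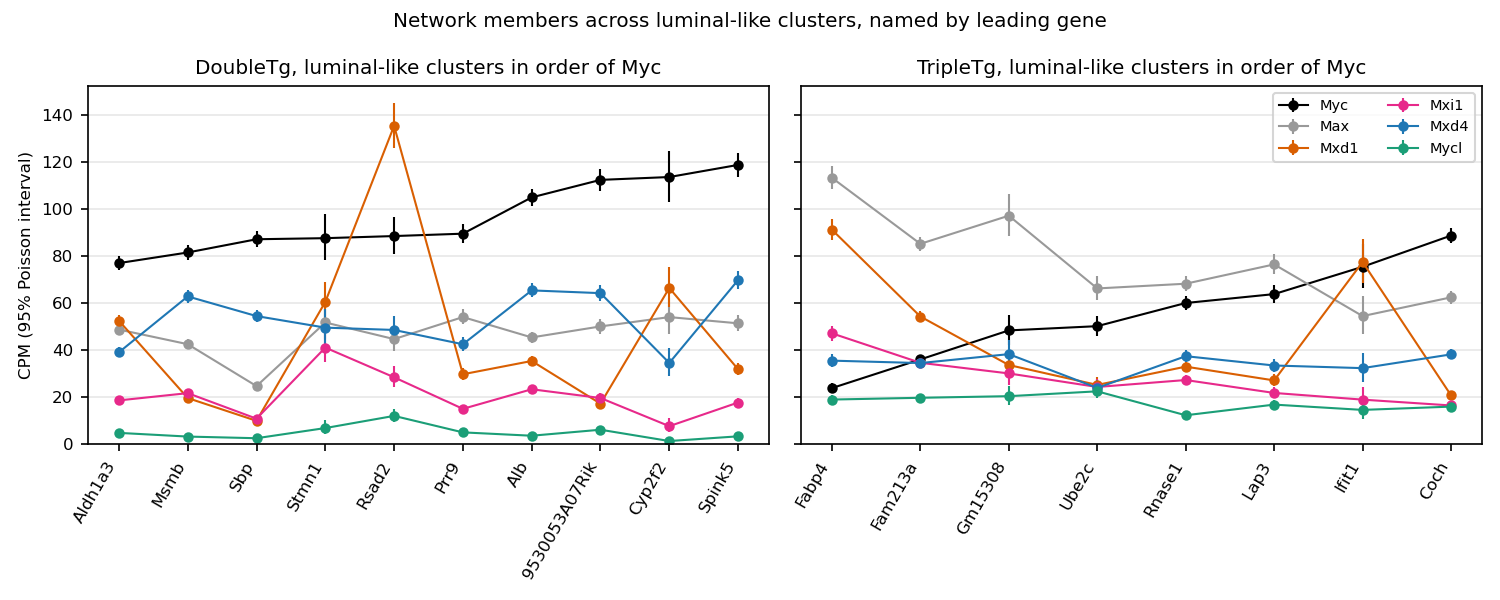
Levels of Myc, Max, Mxd1, Mxi1, Mxd4 and Mycl in the luminal-like clusters of both libraries, ordered by Myc, in CPM with exact 95% counting intervals; lines only join the points of a gene. In TripleTg the Fabp4-led cluster pairs the lowest Myc (23.8 CPM) with the highest Mxd1 (91.1 CPM) and the Coch-led cluster the highest Myc (88.6 CPM) with the lowest Mxd1 (20.7 CPM).

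Myc was compared between the libraries in the other classes too. Of the 8 classes named in both libraries Myc was lower in 7, in 6 of them with an interval wholly below 0. In endothelial-like cells it was at 42.5 against 99.0 CPM, a log2 ratio of -1.22 (-1.56 to -0.88), where 7.91% of 9848 genes were at least 2-fold lower and 13.6% at least 2-fold higher. There 1 of 7 members with 5 CPM was 2-fold lower (Myc) and 1 was 2-fold higher (Mxi1). In smooth muscle-like cells the ratio was -0.95 (-1.35 to -0.55), in fibroblast-like cells -0.39 (-0.56 to -0.23) and in macrophage-like cells -0.50 (-1.02 to 0.03). Dendritic-like cells were the exception at 1.01 (0.12 to 1.86), from 20 TripleTg and 31 DoubleTg UMIs. Immediate early genes summed to 5651 CPM in TripleTg and 8214 CPM in DoubleTg endothelial-like cells, 5334 and 9758 CPM in smooth muscle-like cells and 2829 and 3633 CPM in basal-like cells, but were higher in TripleTg fibroblast-like cells (10005 against 7215 CPM) and luminal-like cells (4468 against 3820 CPM), where Myc was also lower. They were lower in TripleTg macrophage-like (2945 against 5339 CPM) and seminal vesicle-like cells (1679 against 2964 CPM). The same held in dendritic-like cells (2454 against 4549 CPM), where Myc was higher. Of the 13 immediate early genes, 5 were at least 2-fold lower in hMETtg-positive epithelial-like cells of TripleTg (Atf3 at -1.81, Ier2 at -1.24 and Fos at -1.22 among them) and 1 was higher, Ier3 at 1.37. These counts stand against 13.2% of all genes lower and 10.6% higher, and in hMETtg-positive luminal-like cells alone 2 of the 13 were lower and 1 higher. Wnt output genes, a set of 10 feedback genes of Wnt signalling, summed to 120 CPM in TripleTg and 18.9 CPM in DoubleTg endothelial-like cells, 130 and 43.1 CPM in fibroblast-like cells and 134 and 69.6 CPM in smooth muscle-like cells, and proliferation genes to 411 and 159 CPM in endothelial-like cells. Their hMETtg levels are given above. The part of immediate early genes and of epithelial RNA in the Myc ratios was not tested. Among the antagonists of the same classes, Mxi1 was at 1.48 (0.93 to 2.07) and Mxd4 at 0.61 (0.33 to 0.88) in endothelial-like cells and Mxd4 at 1.41 (0.89 to 1.95) in smooth muscle-like cells. Mxi1 was higher in TripleTg in 7 of the 8 classes and Mnt in 7, with intervals wholly above 0 in 4 and 3.

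Within each library, hMETtg-positive cells were next compared with hMETtg-negative cells of the same subtype, which removes the difference between libraries but not that of depth. Over all epithelial-like cells, 6.74% of 8938 genes were at least 2-fold lower and 4.04% at least 2-fold higher in the positive cells of DoubleTg, and 0.378% and 0.71% of 8456 in TripleTg, and no member with 5 CPM passed 2-fold in either library. In DoubleTg luminal-like cells the positive cells held 90.3 CPM of Myc and the negative cells 114 CPM (-0.34, -0.39 to -0.28), and Mxd1 at 34.1 and 24.7 CPM (0.47). In TripleTg luminal-like cells Myc was at 49.3 and 60.7 CPM (-0.30, -0.36 to -0.23), Mxi1 at 31.8 and 25.4 CPM (0.33) and Mxd1 at 47.1 and 39.1 CPM (0.27). Positive cells were unequally placed among these clusters, with 47.3% of the cells of the Fam213a-led and 47.0% of the Fabp4-led cluster positive, both low in Myc, and 20.6% of the Coch-led cluster, highest in Myc. The positive cells were lower in Myc in 9 of the 10 DoubleTg luminal-like clusters, with separate intervals in 5, and in 6 of the 8 TripleTg clusters, with separate intervals in none and in the opposite direction in 1. In basal-like cells the DoubleTg difference was 0.04 (-0.06 to 0.14) and that of TripleTg -0.26 (-0.43 to -0.10). Here too positive cells were unequally placed, at 40.6% of the Ifi202b-led, 36.25% of the Mt4-led, 18.9% of the Reg3b-led and 2.27% of the Clca3a2-led cluster. They were lower in Myc in 2 of these 4 clusters, with separate intervals in 1. Seminal vesicle-like cells went the other way, with positive cells at 56.4 against 38.9 CPM in DoubleTg and 40.4 against 25 CPM in TripleTg. In TripleTg 77.7% of the Crisp1-led cluster (40.1 CPM of Myc) and 11.9% of the Sva-led cluster (24.9 CPM) were positive. Positive and negative cells had separate intervals in 0 of these 2 clusters.

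Cycling cells, defined as luminal-like cells with UMIs of at least 3 of 15 proliferation genes after thinning to 5000 UMIs, made up 6.93% of TripleTg and 1.21% of DoubleTg luminal-like cells. Of the 13 proliferation genes with 5 CPM, 9 were at least 2-fold higher in hMETtg-positive epithelial-like cells of TripleTg, with a list median of 1.58, against 10.6% of all genes and an all-gene median of -0.15. The Myc interval of cycling against other cells included 0 in both libraries: in TripleTg the thinned level was 54.8 CPM in 321 cycling and 55.7 CPM in 4310 other cells, a log2 ratio of -0.02 (-0.35 to 0.29), and in DoubleTg the ratio was -0.25 (-0.88 to 0.32) with 58 cycling cells. In TripleTg the antagonists Mxd1 (-0.82, -1.31 to -0.37) and Mxd4 (-0.73, -1.26 to -0.24) and the partner Max (-0.43, -0.73 to -0.13) were lower in cycling cells. In DoubleTg the same ratios were 0.71 (-0.08 to 1.40) for Mxd1, -0.15 (-1.02 to 0.61) for Mxd4 and 0.25 (-0.54 to 0.93) for Max, so Mxd1 and Max did not take the same sign in both libraries. Mxd3, the antagonist known from S phase, had 11 UMIs in the cycling and 2 in the far more numerous other cells of TripleTg, a ratio of 6.21 (4.01 to 9.42), and 0 in 58 cycling and 4 in 4726 other cells of DoubleTg. Mxi1 had 14 UMIs in the DoubleTg cycling cells, a ratio of 1.36 (0.48 to 2.13), and in TripleTg it was at -0.22 (-0.72 to 0.25).

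Myc is a textbook target of beta-catenin, and its level was set beside Wnt output, the summed UMIs of 10 feedback genes such as Axin2, Nkd1 and Notum. Of these, 9 were at least 2-fold higher in TripleTg hMETtg-positive epithelial-like cells, Axin2 at 70.4 against 2.01 CPM, and 1 was at least 2-fold lower, Sp5 at 1.53 against 6.90 CPM (-2.17). In the same comparison 10.6% of all genes were 2-fold higher and 13.2% 2-fold lower. Over the luminal-like clusters the Spearman rho of Myc with Axin2 was -0.71 in TripleTg (8 clusters) and -0.45 in DoubleTg (10 clusters), and with the summed Wnt output -0.12 and 0.15. Over all 14 epithelial-like clusters of each library, rho with Axin2 was -0.15 in TripleTg and 0.07 in DoubleTg. With Wnt output it was 0.05 and 0.36. The clusters of a library share dissociation but not depth. Median UMIs a cell ran from 22521.5 to 42944.5 over the luminal-like clusters of TripleTg and from 27931.5 to 55128 over those of DoubleTg. The rho of Myc with this median was -0.29 in TripleTg and -0.61 in DoubleTg. The part of depth in these coefficients was not tested, and they are a description.

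Genes downstream of the network were read from a list of 36 commonly cited Myc targets, mostly of ribosome synthesis and nucleotide metabolism. In hMETtg-positive epithelial-like cells 4 of the 36 were at least 2-fold lower (Cad, Ppan, Srm and Rrp9, from -1.05 to -1.61) and 1 at least 2-fold higher (Tfrc, the transferrin receptor, 2.04), against 13.2% and 10.6% of all genes, and the list median of -0.12 was close to the -0.15 of all genes. In hMETtg-positive luminal-like cells the median was 0.05 against -0.04 of all genes, and 3 of the 36 were 2-fold lower (Cad at -1.53, Srm at -1.51 and Ppan at -1.34) and 1 higher (Tfrc at 2.39), against 13.6% and 12% of all genes. Npm1 was at 0.76 and Nme1 at 0.91. In all basal-like cells 23 of the 36 were at least 2-fold lower and 0 higher, against 12.5% and 14.7% of all genes, and the median was -1.16 against -0.07. Srm, spermidine synthase, was at 14.7 CPM in TripleTg and 93.3 CPM in DoubleTg basal-like cells (-2.67), Ppan, a ribosome assembly factor, at 16.5 and 99.8 CPM (-2.60), and Gnl3, a nucleolar GTP-binding protein, at 79.6 and 278 CPM (-1.80). Odc1 (0.59), Cdk4 (0.31) and Tfrc (0.23) were the exceptions above 0 with Ldha (0.11). In endothelial-like cells, the other class with a Myc ratio below -1, 6 of the 36 were 2-fold lower and 1 higher, against 7.91% and 13.6% of all genes, with a median of -0.73 against 0.05. In classes with Myc ratios above -1 the list median varied. It was 0.11 against -0.01 of all genes in all luminal-like cells and 0.04 against 0.24 in macrophage-like cells. In fibroblast-like cells, where Myc was at -0.39, 10 of the 36 were 2-fold lower and 0 higher, with a median of -0.63 against 0.08, and 7.76% of all 10175 genes were 2-fold lower and 13% higher. In smooth muscle-like cells 8 of 35 were lower and 1 higher, with a median of -0.67 against 0.02, and 14.4% of all 10390 genes were lower and 14.8% higher.

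Cofactors of the network were compared in the same cells. In hMETtg-positive epithelial-like cells 13.2% of all genes were 2-fold lower and 10.6% higher, and none of 12 Myc coactivator genes passed 2-fold. Wdr5, a chromatin adaptor that binds Myc, was lowest at -0.70 and Actl6a highest at 0.40. In all basal-like cells 3 of the 12 were 2-fold lower, against 12.5% of all 9134 genes, namely Wdr5 at -1.52 and the AAA ATPase genes Ruvbl2 and Ruvbl1 at -1.51 and -1.22. None of 11 Mxd corepressor genes passed 2-fold in either of these comparisons. In hMETtg-positive epithelial-like cells their ratios ran from -0.61 to 0.69, with Sap18 at -0.61 and Sap30 at 0.67. Of the 12 genes for kinases, ligases and other enzymes that act on Myc protein, 8 reached 5 CPM in hMETtg-positive epithelial-like cells. Of these 8, 1 was 2-fold higher, against 10.6% of all genes, the kinase gene Pim1 at 220 against 91.9 CPM (1.26, 1.23 to 1.29). The lowest was Pim3 at -0.70. Fbxw7, the ubiquitin ligase subunit that marks Myc for degradation, was at 0.54 (0.47 to 0.61). The targets of the Mlx branch, Txnip and Arrdc4, both regulators of glucose uptake, were at 16.8 against 60.5 CPM (-1.85) and 25 against 65.8 CPM (-1.39). Mlx itself was at 15.8 against 26.2 CPM in these cells.

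The genes whose levels most resembled Myc were ranked by Pearson correlation of log2 levels over all 25 clusters of each library, unnamed ones included, taking the lower of both coefficients, among 4235 genes. The first 5 were Rhbdf1 (0.87 in DoubleTg and 0.85 in TripleTg), Eif3j1 (0.88 and 0.83), Slc1a5, a glutamine transporter (0.80 and 0.87), the immediate early gene Jun (0.78 and 0.90) and Cyr61 (0.78 and 0.80). Among the members the coefficients with Myc were lower, 0.41 and 0.40 for Mxd4, 0.29 and 0.09 for Max and -0.57 and -0.16 for Mxi1. Clusters of a library share dissociation but not depth, with medians from 1058 to 55128 UMIs a cell in DoubleTg and 2205.5 to 54478 in TripleTg. The part of depth in the ranking was not tested, and these values are a description.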

How the data were processed

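Prostate tumour cells of 1 DoubleTg and 1 TripleTg mouse library were measured by 10x 3′ single-cell RNA sequencing. Whether a library pools animals is not given in the labels. The authors deposited raw UMI counts per gene and cell, made with Cell Ranger 6.0.2 on mm10 with the human HGF and MET transgene sequences added, per the labels. The header of the DoubleTg matrix names another Cell Ranger release. The TripleTg matrix holds as many barcodes as the study states, already filtered, whereas the study's limits on genes and mitochondrial UMIs, applied here to the DoubleTg matrix, left 10598 of 12072, more than the study states. Each library held 28000 features, and 256880958 UMIs (DoubleTg) and 229655259 UMIs (TripleTg) were kept.

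Each library was clustered separately (scanpy 1.11.5, Python 3.11.15, 2000 variable genes, 20 principal components, 15 neighbours, Leiden resolution 1, leidenalg 0.10.2). Clusters were named from marker lists of at least 3 raised genes. The thresholds for naming were set after the clusters were seen, so classes may differ from those of the study. UMIs were summed per class and scaled to CPM. Intervals were exact Poisson (levels), Clopper-Pearson (shares) and conditional binomial (log2 ratios), from scipy 1.17.1, and cover counting error only. With 1 library per genotype, no test between genotypes was made. Lists were counted at 2-fold, over the genes that reached 5 CPM on either side. Shares of cells and cycling cells used cells thinned to 5000 UMIs, with shallower cells left out. A doublet caller (Scrublet) marked 336 DoubleTg and 0 TripleTg cells and was not used. A split of cells by 1 Wnt output UMI is not reported, since most cells without one may be sampling zeros. No doublets were removed, and leaving out the 8% of cells with the highest scores was an alternative. Other alternatives were thinning, TMM factors (edgeR 4.0.16), other cell choices, limits and resolutions, and leaving out clusters. The summing and interval code was tested on simulated data.

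All 9 members were named. Of each list, at most the 3 highest and 3 lowest ratios could be named, and those printed, with further genes, were chosen after their values were seen. The members, lists and thresholds were chosen with earlier results of these data known.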

Additional observations from a re-analysis of the deposited data

Results flagged for a closer look

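Max differed between epithelial subtypes in the direction of its TripleTg over DoubleTg ratio, which is a difference that was not tested. Over all cells it was at 0.82 (0.78 to 0.86) in luminal-like, -0.23 (-0.33 to -0.13) in basal-like and -0.37 (-0.63 to -0.10) in seminal vesicle-like cells. The luminal-like ratio was thus larger by 1.05 than the basal-like and by 1.19 than the seminal vesicle-like ratio on the log2 scale.

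Over all cells, Mxd4 and Mlx took the opposite sign in luminal-like and basal-like cells. Mxd4 was at -0.65 (-0.70 to -0.61) in luminal-like and 0.37 (0.24 to 0.50) in basal-like cells, a difference of -1.03, and Mlx at -0.65 (-0.72 to -0.58) and 0.32 (0.11 to 0.53), a difference of -0.97. Against seminal vesicle-like cells, where Mxd4 was at -0.45 and Mlx at -0.85, the basal-like ratios were higher by 0.82 and 1.17. These differences were not tested either, since each genotype has 1 library, and the intervals cover counting error only. Among hMETtg-positive cells alone, no member had intervals on opposite sides of 0 in different epithelial subtypes.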

How the results depend on the processing

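No paired analysis was possible because each genotype has 1 library. All 9 members kept the direction of their ratio in hMETtg-positive epithelial-like cells under every alternative that gave a value (11, or 10 for Mycn). Sizes varied, and the lowest values there were 0.03 for Mxd1 (0.25 as reported), 0.22 for Mnt (0.41) and 0.34 for Mxi1 (0.59). For Myc in these cells the log2 ratio was -1.19 with cells thinned to 5000 UMIs, -1.14 as the mean over cells of each cell's CPM, -0.87 in luminal-like cells alone and -0.86 when centred on the median of all genes. Because its main value lies at the 2-fold limit, 0 members were 2-fold lower with TMM factors, with all epithelial-like cells, at resolution 0.5, in luminal-like cells alone or when centred. In luminal-like cells Myc was at -1.04 thinned, -0.94 with TMM factors, -0.74 with hMETtg-negative cells included and -0.95 as a mean over cells. Without 1 TripleTg cluster it was -0.71 (Fam213a), -1.04 (Coch), -0.72 (Fabp4) or -0.98 (Rnase1). In basal-like cells it was -2.0 with negative cells included, -1.99 with at least 3 hMETtg UMIs, -2.41 as a mean over cells and -2.46 without the highest 8% of doublet scores. In seminal vesicle-like cells it was -0.14 thinned, -0.052 with TMM factors, -0.81 as a mean over cells and -0.10 when centred, so its size there is not fixed by these 41 DoubleTg cells. Myc of hMETtg-positive over negative DoubleTg cells was -0.34 in luminal-like cells alone. The same DoubleTg ratio changed sign from all epithelial-like to luminal-like cells alone for Max (-0.17 to 0.06), Mycl (0.26 to -0.07) and Mnt (-0.03 to 0.09). Thinned Myc levels were 102 CPM (luminal-like), 180 CPM (basal-like) and 59.1 CPM (seminal vesicle-like) in DoubleTg and 49.9 CPM (basal-like) and 39.4 CPM (seminal vesicle-like) in TripleTg. Myc turnover genes 2-fold higher numbered 2 with a minimum of 1 CPM, and immediate early genes 2-fold lower numbered 2 in luminal-like cells alone. The cause of these shifts was not tested. Alternatives with centring, doublet scores and clusters left out were chosen after seeing the data, and leaving out called doublets was not run because the caller marked none in TripleTg. The smooth muscle-like and dendritic-like classes hold under 100 cells in each library, and their intervals are correspondingly wide.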

Other observations

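Unnamed clusters held the highest Myc of either library. The cluster led by Gm26917 was at 218 CPM in DoubleTg (455 cells) and 175 CPM in TripleTg (408 cells), with medians of 2030 and 2568.5 UMIs a cell. These shallow clusters also held the highest Mycl, 39.2 and 72.5 CPM, and summed immediate early genes of 16165 and 19760 CPM. The Fabp7-led cluster stood next, with 201 CPM of Myc in 39 DoubleTg cells and 153 CPM in 25 TripleTg cells. They enter no class, but are among the 25 clusters per library over which genes were ranked by resemblance to Myc.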
